A study of Homo sapiens with 4 samples.

Results

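The cytosolic ribosomal protein genes are the genes for the proteins of the 60S and 40S ribosomal subunits outside mitochondria. They were chosen by name as the protein-coding GENCODE genes RPL or RPS followed by a number, with RPLP0, RPLP1, RPLP2 and RPSA, without the RPS6K kinases, pseudogenes or mitochondrial ribosomal proteins. This gave 87 of 19927 protein-coding genes. Of these, 84 had at least 1 unique read over an annotated junction and 81 passed the filter on low counts. RPL10L has no intron, RPS4Y1 and RPS4Y2 had no read, RPL3L had 1 read, and RPL36AL and RPL39L stayed below the filter.

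The study sequenced chromatin-bound, nascent RNA of K562 cells, a human erythroleukemia line, in 2 wild-type (WT) and 2 SF3B1 K700E libraries. SF3B1 is the subunit of the U2 small nuclear ribonucleoprotein that holds the branch-point region when the 3′ splice site is recognised, and K700E is a substitution that recurs in myelodysplastic syndromes. The treatment text shared by all 4 samples has the modified allele induced with doxycycline at 1 µg/ml for 4 days, and the labels do not say separately whether WT cells carried an inducible allele or received the drug. Fractionation buffers held 25 µM α-amanitin, an inhibitor of RNA polymerase II, and RNA was depleted of polyadenylated RNA 3 times and then of ribosomal RNA. Whether the replicates came from separate cultures is not stated, and the p-values measure only the spread between these libraries, which may be technical.

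Every cell must make its ribosomal proteins in matched amounts, since each subunit takes 1 copy of nearly every one of them. Their genes are short, have many small introns, often carry small nucleolar RNAs (snoRNAs) inside those introns, and usually start transcription at a C followed by a run of pyrimidines, the 5′ terminal oligopyrimidine (TOP) motif through which mTOR signalling controls their translation. Unbalanced supply of single ribosomal proteins underlies Diamond-Blackfan anaemia, a failure of red cell production, and loss of RPS14 contributes to the anaemia of the 5q- form of myelodysplastic syndrome.

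Junction reads numbered 3569807 and 3673614 in WT and 4288000 and 5303176 in SF3B1 K700E. Spliced reads of SF3B1 itself were 897 and 1016 CPM (junction reads scaled to a common library size) in WT and 845 and 702 CPM in SF3B1 K700E. The difference did not pass (edgeR adjusted p 0.747), and junction counts cannot show the allele. The label calls the cells epithelial. Of 15 erythroid markers 10 passed the filter on low counts, with a summed level of 1434 to 2171 CPM over the libraries, against 62.1 to 91.9 CPM for 8 epithelial markers, of which 3 passed. The erythroid factor GATA1 was at 79.2 to 152 CPM, and the epithelial cadherin CDH1 had no read in any library.

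The representative transcripts of the ribosomal protein genes held 390 introns with a median length of 510 nt, against 1556 nt in other genes. Unique reads covered 369 of these introns. These reads made up 98.2% of the 348181 reads at annotated junctions of the ribosomal protein genes. Levels are given as CPM per intron, because a gene with more introns collects more junction reads. The median gene had 55.2 CPM per intron over the 4 libraries. RPS18, a protein of the head of the small subunit, was highest at 192 ± 1.16 in WT (mean ± SD, n = 2), followed by RPL13A at 163 ± 24.7, RPLP0, the base of the stalk that recruits elongation factors, at 138 ± 19.5, RPL7A at 116 ± 1.85 and RPL19 at 129 ± 19.9. The order of these 5 follows the mean over all 4 libraries, and the values of each gene over the libraries overlap those of the next in the order.

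The lowest levels were those of the paralogues, diverged copies of core ribosomal protein genes. In WT, RPL26L1 stood at 1.57 ± 0.0897 CPM per intron, RPL22L1 at 2.79 ± 1.68, RPS27L, a p53-inducible copy of RPS27, at 3.58 ± 0.887 and RPL7L1 at 7.02 ± 0.99 (mean ± SD, n = 2). The next lowest gene by this measure, RPS26, stood at 12.6 ± 1.27. Intron 1 of its representative transcript had no read in any library and lowers the level per intron. Its place in the order therefore depends on the transcript chosen. RPS26 also had the largest share of multiply mapped reads, 10.8%, and a level made of unique reads understates such a gene. Over all ribosomal protein genes the multiply mapped share was 0.983% and 1.35% in WT and 1.14% and 1.12% in SF3B1 K700E, against 8.11% to 9.19% at annotated junctions of other genes. The difference between genotypes in that share was -0.04 percentage points (exact permutation p 1).

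Ribosomal protein genes took a smaller part of the junction reads in 1 of the 2 mutant libraries. They held 2.39% (95% Wilson interval 2.38 to 2.41) and 2.37% (2.35 to 2.38) of annotated-junction reads in WT, 2.47% (2.46 to 2.49) in K700E replicate 1 and 1.62% (1.61 to 1.63) in K700E replicate 2. Replicate 2 lies below the other 3 libraries, and replicate 1 lies above both WT libraries. The genotypes differed by -0.332 percentage points (exact permutation p 1; the smallest p that 2 against 2 allows is 0.333), and by 0.0924 without K700E replicate 2. Genes of both subunits moved alike. The 60S genes held 1.44% and 1.43% in WT, 1.5% in K700E replicate 1 and 1.02% in replicate 2, and the 40S genes 0.945%, 0.931%, 0.96% and 0.593% in the same order. In bulk RNA, fewer cells of a type and less RNA per cell cannot be told apart.

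The same library stood apart gene by gene. Measured as the log2 ratio to the mean of the WT libraries, 79 of 81 ribosomal protein genes lay below 0 in K700E replicate 2, where 48.9% of all 10827 tested genes did, and their median was -0.57. In K700E replicate 1, 40 of 81 lay below 0, where 49.6% of all genes did, and their median was 0.01. The middle quartiles of the genes spanned -0.83 to -0.34 in replicate 2 and -0.14 to 0.13 in replicate 1. The median of 60 tested ribosome biogenesis genes was 0.25 in replicate 1 and 0.17 in replicate 2, and that of 21 other genes with TOP mRNAs, such as those of translation elongation factors, was 0.16 and -0.11. The 507 other genes shorter than 5 kb had a median of -0.23 in replicate 1 and 0.01 in replicate 2. Levels of markers of other blood cells also varied among the 4 libraries. Of 6 megakaryocyte markers 1 passed the filter, ITGA2B, an integrin of the platelet lineage, at 414 and 150 CPM in WT, 145 CPM in K700E replicate 1 and 612 CPM in replicate 2, while GP1BA and PF4 had no read. The summed level of the 6 was 150 to 415 CPM in WT and 145 to 612 CPM in SF3B1 K700E. The summed level of 6 myeloid markers was 35.5 to 77.3 CPM in WT and 11.6 to 35.6 CPM in SF3B1 K700E, with 4 of the 6 at 0 in every library, MPO and ELANE among them, and that of 6 lymphoid markers was 10.8 to 15 CPM and 2.02 to 5.41 CPM, with MS4A1 and CD79A at 0 in every library. Their part in the shift of K700E replicate 2 was not tested.

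**Figure D1:**
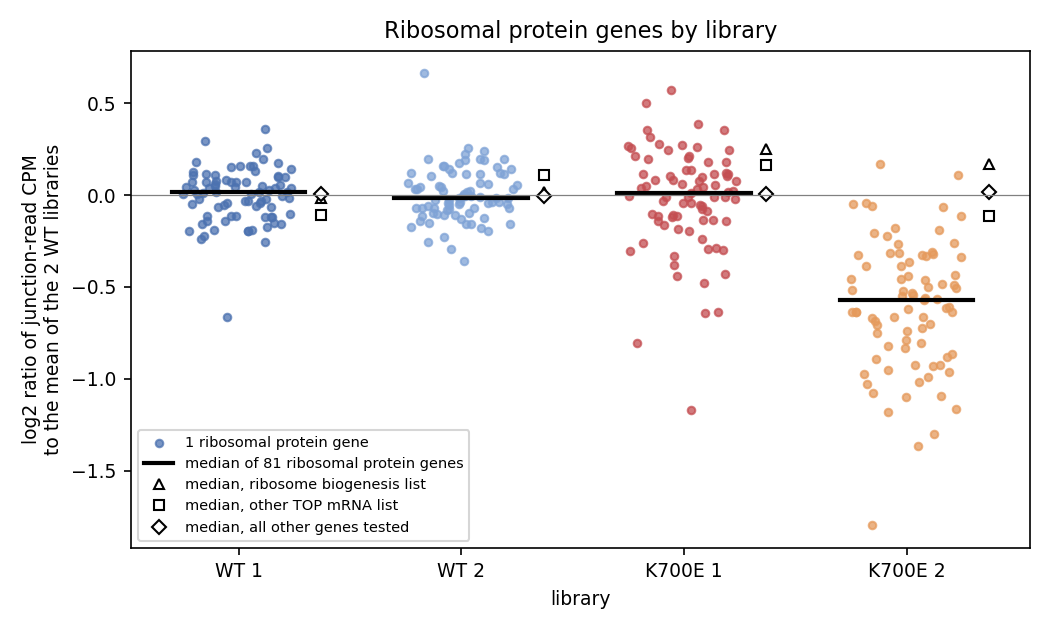
Log2 ratio of junction-read CPM to the mean of the 2 WT libraries (y axis) for 81 ribosomal protein genes in each library (x axis); points are genes, black bars their medians, and open symbols the medians of 3 other sets of genes. In K700E replicate 2 the median of the ribosomal protein genes is -0.57, while those of the other sets lie between -0.11 and 0.17.

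Between the genotypes, 1 ribosomal protein gene fell and none rose. The gene test called 65 of 10827 genes lower (0.6% called) and 36 higher (0.333% called), and RPL37 was the 1 ribosomal protein gene among them. At an unadjusted p under 0.05, 7 of 81 were lower (background 6.44%) and 0 were higher (background 3.67%). DESeq2 called RPL37 and RPLP2 lower (1.01% called lower over all genes) and none higher (0.46%). The log2 change was below 0 for 71 of 81, against 49.6% of all genes, with a median of -0.26 against 0.00. Both mutant libraries lay below both WT libraries for 23 of 81, where 20.1% of all genes did, and above both for 1 of 81, where 19.4% did. Without K700E replicate 2, the median was 0.01 and 37 of 81 lay below 0, and no gene of any kind was called among 11245, with 946 at an unadjusted p under 0.05. Without K700E replicate 1 the median was -0.61, and 6 ribosomal protein genes were called lower (1.98% called lower over all genes): RPL37, RPL27A, RPLP2, RPS27, RPS28 and RPL32. In that fit the single mutant library is assumed to vary like the WT libraries.

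RPL37 encodes a zinc-finger protein of the large subunit (ENSG00000145592.13, GRCh38 chromosome 5, 40825262 to 40835335). Its junction reads were 218 and 213 CPM in WT and 95.4 and 61.3 CPM in SF3B1 K700E. The groups do not overlap, and K700E replicate 2 is the lowest. RPL37 fell by 1.46 on the log2 scale (SE 0.264, edgeR adjusted p 0.0337). Without K700E replicate 2 its log2 change was -1.16, with an edgeR adjusted p of 0.357.

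Each of the 3 introns of RPL37 carried the difference. Intron 1 had 190 and 193 reads in WT and 102 and 74 in SF3B1 K700E. Intron 2 had 310 and 313 against 167 and 136. Intron 3, which hosts the snoRNA SNORD72, had 210 and 203 against 107 and 83. In all 3 introns both mutant libraries lay below both WT libraries, although the mutant libraries were sequenced more deeply. No intron of RPL37 had more than 2 multiply mapped reads in a library.

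The next lowest changes did not pass the edgeR test. RPLP2, an acidic protein of the stalk, was at 244 and 213 CPM in WT and 130 and 91.9 CPM in SF3B1 K700E, with a log2 change of -1.04 (SE 0.248, edgeR adjusted p 0.0883). DESeq2 called it, at an adjusted p of 0.021. RPL32 was at 287 and 277 CPM against 180 and 131 CPM, with a log2 change of -0.86 (edgeR adjusted p 0.156). In RPLP2 and RPL32 the genotypes do not overlap, and K700E replicate 2 was again the lowest library. RPL27A was at 348 and 331 CPM against 252 and 131 CPM, with a log2 change of -0.83 (edgeR adjusted p 0.322). RPL36 was at 119 and 102 CPM against 79 and 54.1 CPM, with a log2 change of -0.74 (edgeR adjusted p 0.322). RPS24 differed from these in that its mutant libraries lay close together, at 281 and 259 CPM, against 469 and 408 CPM in WT. Its log2 change was -0.70 (edgeR adjusted p 0.229) and lay between -0.77 and -0.60 when each library was left out.

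At the other end, the 5 highest changes were small and none passed. RPL26L1 had a log2 change of 0.40 from 4.89 and 4.51 CPM in WT to 7.06 and 5.41 CPM in SF3B1 K700E (edgeR adjusted p 0.877). It was the 1 ribosomal protein gene with both mutant libraries above both WT libraries, at a depth of few reads. RPL6, RPL7A and RPL4, proteins of the body of the large subunit, had log2 changes of 0.11, 0.11 and 0.09, and the paralogue RPL7L1 had 0.09. Each of these 4 fell below 0 when 1 of the libraries was left out.

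**Figure D2:**
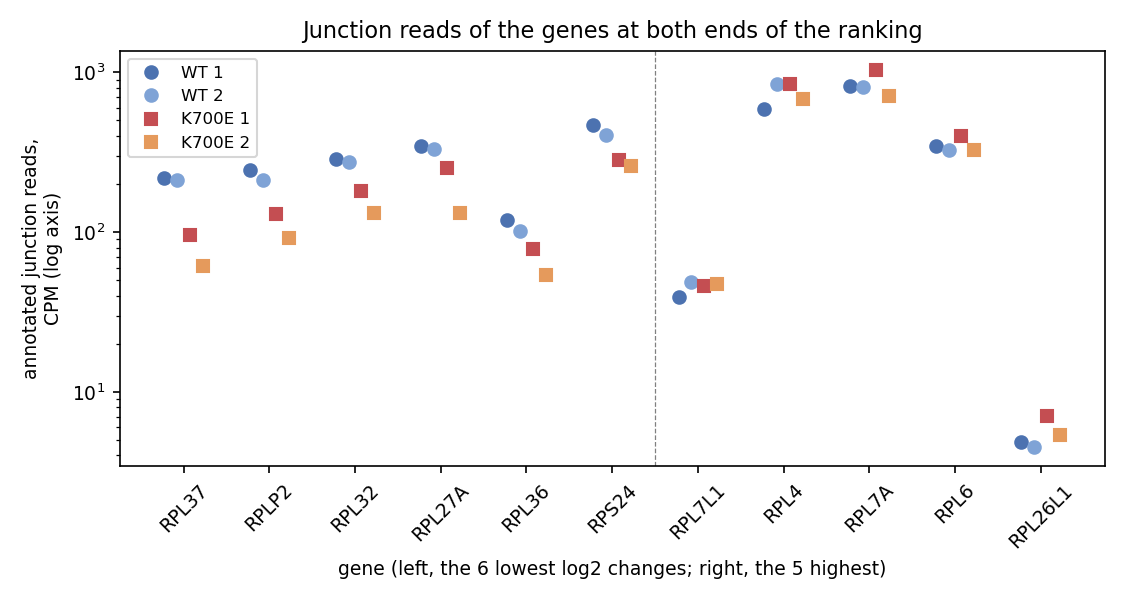
Annotated junction reads in CPM (log axis) of the 6 ribosomal protein genes with the lowest log2 change and the 5 with the highest, 1 point per library (circles WT, squares K700E). For RPL37 the WT libraries lie at 218 and 213 CPM and the mutant libraries at 95.4 and 61.3 CPM.

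Most genes that lie near the lowest ribosomal protein genes on the chromosome had log2 changes below 0 as well. Over all genes tested, 49.6% had a log2 change below 0. Within 5 Mb of RPL37, 22 of 27 other tested genes had a log2 change below 0, with a median of -0.58. Within 5 Mb of RPLP2, at the end of the short arm of chromosome 11, 56 of 59 lay below 0, with a median of -0.60. Near RPL27A, on the same arm, 43 of 50 lay below 0 (median -0.46), near RPS24 on chromosome 10 36 of 38 (median -0.43), and near RPL32 on chromosome 3 51 of 60 (median -0.31). In each of these 5 places the ribosomal protein gene lay below the median of its neighbours. The 5 genes were picked from the lowest changes, which by itself favours this order. Near RPL36, RPS21 and RPL27 the neighbours' medians were -0.14, -0.04 and 0.08, beside log2 changes of -0.74, -0.63 and -0.57 of the genes themselves.

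The neighbourhoods of RPL37, RPLP2, RPL27A, RPS24 and RPL32 had medians below 0 in both mutant libraries. So did those of RPS13, RPL15 and RPSA, also among the genes with low changes. Those of RPL36, RPS21, RPL27 and RPS28 did not. Their medians were -0.27, -0.19, -0.0045 and -0.20 in K700E replicate 1, and 0.01, 0.04, 0.14 and 0.02 in replicate 2. Around RPLP2 the median log2 ratio to WT was -0.60 in K700E replicate 1 and -0.50 in replicate 2, around RPL27A -0.33 and -0.51, around RPS24 -0.50 and -0.30, around RPL32 -0.33 and -0.25, and around RPL37 -0.20 and -0.81. Across the 81 genes, the log2 change of a ribosomal protein gene and the median of its neighbours had a Pearson r of 0.573 and a Spearman rho of 0.277. This describes genes that share libraries, and several genes share neighbours. The part of the neighbourhood in the change of any single gene was not tested.

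**Figure D3:**
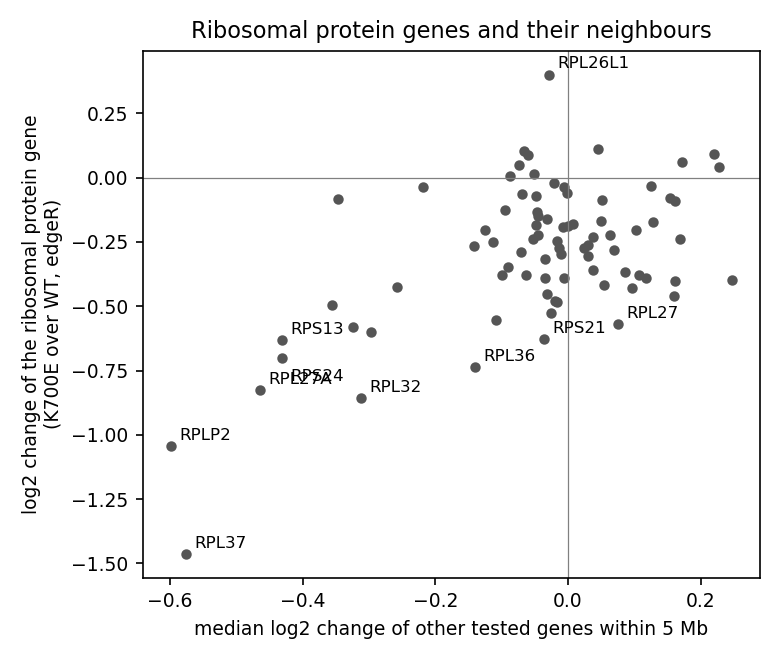
Log2 change of each of 81 ribosomal protein genes (y axis, K700E over WT) against the median log2 change of the other tested genes within 5 Mb (x axis). RPL37, RPLP2, RPL27A, RPL32, RPS24 and RPS13 lie at the lower left, while most genes have neighbours with a median near 0.

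By role, the 46 core 60S genes had 1 called lower (5 at an unadjusted p under 0.05) and a median log2 change of -0.25. The 31 core 40S genes had 0 called (2 at an unadjusted p under 0.05, both lower) and a median of -0.29. Over all genes tested, 0.6% were called lower, 6.44% were lower at an unadjusted p under 0.05, and the median was 0.00. The stalk genes RPLP0, RPLP1 and RPLP2 had log2 changes of -0.13, 0.06 and -1.04. RPL5 and RPL11, which bind 5S rRNA and, when free, MDM2, the ubiquitin ligase of p53, had 0.04 and -0.17. The 4 paralogues that passed the filter had a median of 0.00. Outside the name rule, FAU, which is made as a fusion of a ubiquitin-like protein and a ribosomal protein, had a log2 change of -0.37, and RACK1, a signalling scaffold on the 40S head, had -0.02. Neither passed.

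All 18 Diamond-Blackfan genes on the list passed the filter, and 0 were called (1 lower at an unadjusted p under 0.05, RPS24, against 6.44% of all genes). Their log2 change was below 0 for 16 of 18, against 49.6% of all genes, with a median of -0.28. The whole set of ribosomal protein genes was alike, with 71 of 81 below 0 and a median of -0.26. RPS19, the gene most often mutated in the disease, was at 710 and 470 CPM in WT and 599 and 363 CPM in SF3B1 K700E. Its genotypes overlap, and the WT libraries differ from each other by more than the means do. All 18 genes lay below the WT mean in K700E replicate 2 (median -0.69) and 7 of 18 in K700E replicate 1 (median 0.03). Of all ribosomal protein genes, 79 of 81 (median -0.57) and 40 of 81 (median 0.01) did so in the same order. Among the 64 ribosome biogenesis genes, 60 were tested and 0 were called by edgeR. At an unadjusted p under 0.05, 6 of 60 were higher (3.67% of all genes) and 2 were lower (6.44%). The log2 change was above 0 for 46 of 60, against 50.4% of all genes, and the median was 0.23. Both mutant libraries lay above both WT libraries for 27 of these 60, where 19.4% of all genes did. The RNA polymerase I list had 18 tested genes, 0 called (1 higher at an unadjusted p under 0.05, against 3.67% of all genes) and a median of 0.00.

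Start sites with a TOP run were common among the ribosomal protein genes. The motif searched was a C at the start base followed by at least 4 letters that are each C or T, on the transcribed strand. RefSeq start sites (GRCh38.p14) matched 70 of the 87 genes, and 48 of the 70 (68.6%) had the run at 1 of their starts, against 4.98% of 27235 other genes. The run had a median length of 8 and reached 19. Among core genes 46 of 62 had it, and among paralogues 2 of 8. The following stretches run from 10 bases before the start through the first 20 bases of the transcript, with the run in capitals, for 4 core genes described above and 2 paralogues whose starts lack it.
RPLP2: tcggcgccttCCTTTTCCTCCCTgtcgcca
RPL27A: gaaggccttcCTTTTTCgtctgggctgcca
RPS24: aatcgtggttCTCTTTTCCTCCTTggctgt
RPS18: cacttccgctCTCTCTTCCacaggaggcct
RPL7L1: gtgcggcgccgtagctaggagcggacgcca
RPS27L: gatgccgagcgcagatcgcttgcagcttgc
They lie at chr11:809957-809986 (plus strand), chr11:8682782-8682811 (plus), chr10:78033853-78033882 (plus), chr6:33272065-33272094 (plus), chr6:42879606-42879635 (plus) and chr15:63157458-63157487 (minus) of GRCh38.p14. The shift of K700E replicate 2 was seen with and without the run. The median log2 ratio to WT in that library was -0.63 for the 47 tested genes with a run and -0.44 for the 19 matched genes without one. It was -0.62 for the 15 tested genes without a RefSeq start. The genes without a run include the paralogues RPL7L1, RPL26L1 and RPS27L, and the 4 tested paralogues had a median of -0.08 in that library. No match says only that these letters are not at the annotated start.

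SF3B1 K700E is known for the use of acceptors about 10 to 30 nt upstream of the annotated one. Ribosomal protein genes held 15 such unannotated acceptors in 14 genes, with few reads. Their reads numbered 2 and 2 in WT and 16 and 14 in SF3B1 K700E. As a share of these reads plus those of the annotated junctions, this was 0.00245% and 0.0024% in WT and 0.0158% and 0.017% in SF3B1 K700E. The mutant libraries lie above the WT libraries, and the difference of 0.014 percentage points had the smallest p this design allows (exact permutation p 0.333). Other genes had 0.045% and 0.0509% in WT and 0.128% and 0.106% in SF3B1 K700E, so that the share in ribosomal protein genes was the lower one in each of the 4 libraries.

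Read counts at the other distances examined overlapped between the genotypes or were lower in SF3B1 K700E. Unannotated acceptors 10 to 30 nt downstream had 5 and 10 reads in WT and 4 and 1 in SF3B1 K700E. Those 1 to 9 nt downstream had 11 and 19 reads against 17 and 10, and those 31 to 60 nt upstream had 3 and 2 against 3 and 1. No acceptor was read 1 to 9 nt upstream. These windows were compared by their counts, and the difference between them was not tested.

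**Figure D4:**
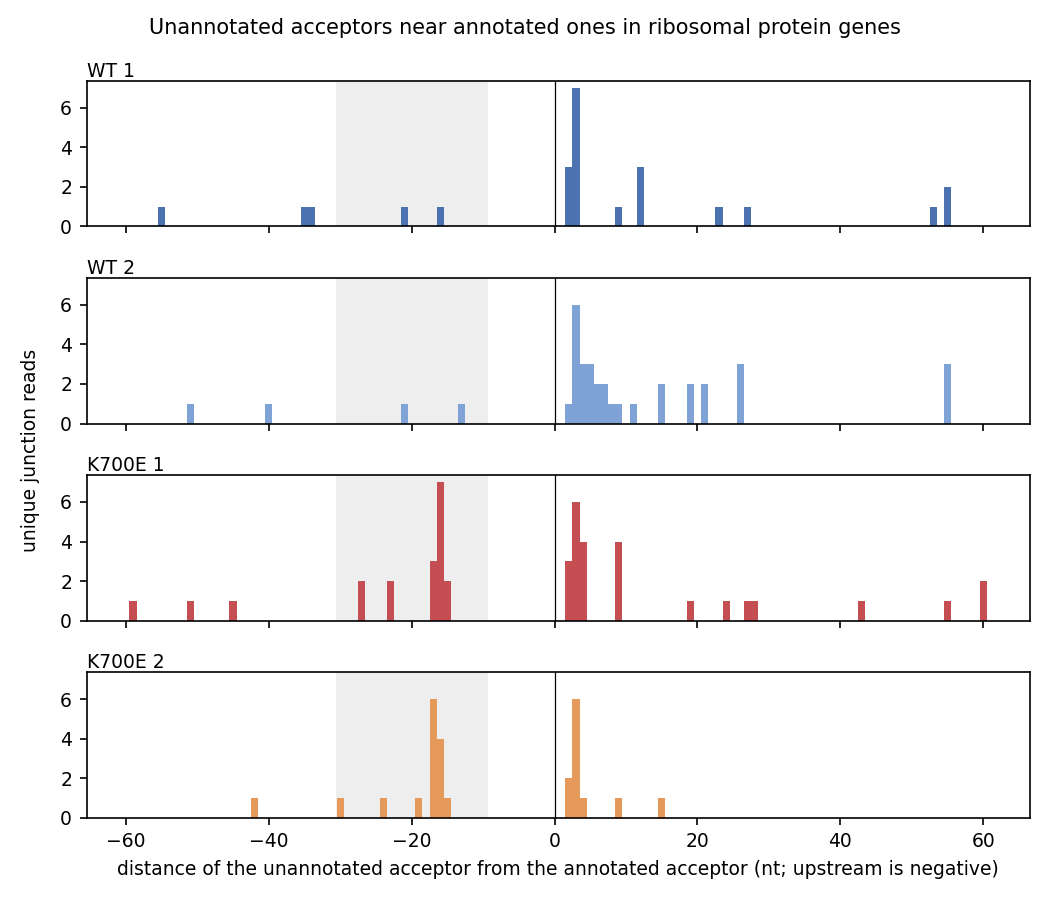
Unique reads (y axis) at unannotated acceptors of ribosomal protein genes by distance from the annotated acceptor of the same donor (x axis, nt), 1 panel per library, with 10 to 30 nt upstream shaded. The shaded window holds 2 and 2 reads in the WT libraries and 16 and 14 in the K700E libraries, most of them 15 to 17 nt upstream.

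RPL27A, a large-subunit protein, had the most used of these sites, 16 nt upstream of the acceptor of its intron 2. It took 1 of 357 and 0 of 339 reads at the donor in WT and 7 of 338 and 4 of 181 in SF3B1 K700E. The shares were 0.14 ± 0.198% and 2.14 ± 0.0982% (mean ± SD, n = 2), and the genotypes do not overlap. The site reached the minimum of 10 reads, needed to be named and tested, only through the mutant libraries. That choice favours such a separation, which is therefore no support for a difference. The edgeR junction test gave an unadjusted p of 0.00945 and an adjusted p of 0.816, so the site was not called. Without RPL27A the upstream reads of the other genes were 1 and 1 in WT and 9 and 10 in SF3B1 K700E. The next most used site was in RPL24, 17 nt upstream of the acceptor of intron 4, with 0 of 188 and 0 of 123 reads in WT, which allows a share of up to 0.965%, and 3 of 191 and 2 of 220 in SF3B1 K700E. RPL4 intron 8 (17 nt) and RPS27A intron 5 (15 nt) had 3 reads each, all of them in mutant libraries. RPL24, RPL4 and RPS27A were singled out after their values were seen, and each rests on at most 5 reads.

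The 3′ ends of the introns of RPL27A and RPL24 show how the sites lie, with the AG of the upstream and of the annotated acceptor in capitals and 4 exon bases at the end.
RPL27A: ccccacgtAGctttgtattcctgcAGgcaa
RPL24: tgccttaAGttacttttaccccacAGggct
They are read from longer GENCODE transcripts at chr11:8683980-8684009 (plus strand) and chr3:101682489-101682518 (minus strand) of GRCh38. Between the AG pairs, 11 of 14 bases in RPL27A and 12 of 15 in RPL24 are C or T.

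No alternative junction of a ribosomal protein gene was called. The edgeR test covered 44 acceptors in 19 genes (0 called against 0.137% of 23366 acceptors, and 2 at an unadjusted p under 0.05 against 3.17%) and 83 donors in 33 genes (0 called against 0.0087% of 22976 donors, and 3 at an unadjusted p under 0.05 against 2.18%). limma's voom fit called 0 of both (0.0642% of all acceptors and 0.0087% of all donors were called). At an unadjusted p under 0.05 it had 2 of these acceptors (3.74% of all) and 2 of these donors (2.75% of all). Reads off the annotated sites were rare. Unannotated junctions took 0.116% and 0.156% of the reads inside ribosomal protein genes in WT and 0.137% and 0.205% in SF3B1 K700E (exact permutation p 0.667), against 2.7% to 3.21% inside other genes.

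RPS24 has a 22-nt alternative exon near the end of its coding sequence, which gives isoforms that differ at the carboxy terminus. The junction into that exon took 150 of 335 and 76 of 235 reads at its donor in WT, and 52 of 222 and 64 of 256 in SF3B1 K700E. The shares were 38.6 ± 8.79% and 24.2 ± 1.11% (mean ± SD, n = 2). The genotypes do not overlap, and the WT libraries differ from each other by more than WT replicate 2 differs from either mutant library. It was not called (edgeR unadjusted p 0.0641, adjusted p 1; limma voom unadjusted p 0.0378). The junction out of the exon took 99 of 284 and 55 of 214 reads in WT and 40 of 210 and 57 of 249 in SF3B1 K700E. The exon is printed whole, at chr10:78040204-78040225 (plus strand) of GRCh38.
RPS24: TGAGCTGGAGATTGGATCACAG

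Other minor junctions moved in either direction and were not called. In RPL10A, a minor donor took 4 of 240 and 3 of 256 reads in WT and 14 of 313 and 11 of 246 in SF3B1 K700E (edgeR unadjusted p 0.0258). In RPL12, an annotated minor donor took 3 of 155 and 7 of 173 against 18 of 222 and 8 of 144 (edgeR unadjusted p 0.094). The skip of an exon in RPL10, a late-joining protein of the large subunit, took 7 of 189 and 6 of 183 against 16 of 260 and 17 of 186 (edgeR unadjusted p 0.0912). In these 3 genes both mutant libraries had the larger share. In RPL9 the minor donor took 16 of 172 and 14 of 179 reads in WT and 5 of 199 and 8 of 156 in SF3B1 K700E, which is the opposite direction (edgeR unadjusted p 0.0437). In RPL13A a donor of a nonsense-mediated decay transcript had 0 of 407 and 0 of 366 reads in WT, which allows a share of up to 0.388%, and 8 of 615 and 3 of 409 in SF3B1 K700E (edgeR unadjusted p 0.00736). RPL10, RPL9 and RPL13A were singled out after their values were seen. The RPL10A and RPL13A donors reached the 10 reads needed for the test only through the mutant libraries. That favours a larger share in SF3B1 K700E, so their separation is no support for a difference. An annotated alternative acceptor of RPL3 took 4 of 154 and 5 of 232 reads in WT and 6 of 351 and 6 of 241 in SF3B1 K700E, and the exon skip of RPS3 took 5 of 248 and 6 of 324 against 11 of 451 and 10 of 332. Neither difference passed (edgeR unadjusted p 0.776 and 0.506).

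**Figure D5:**
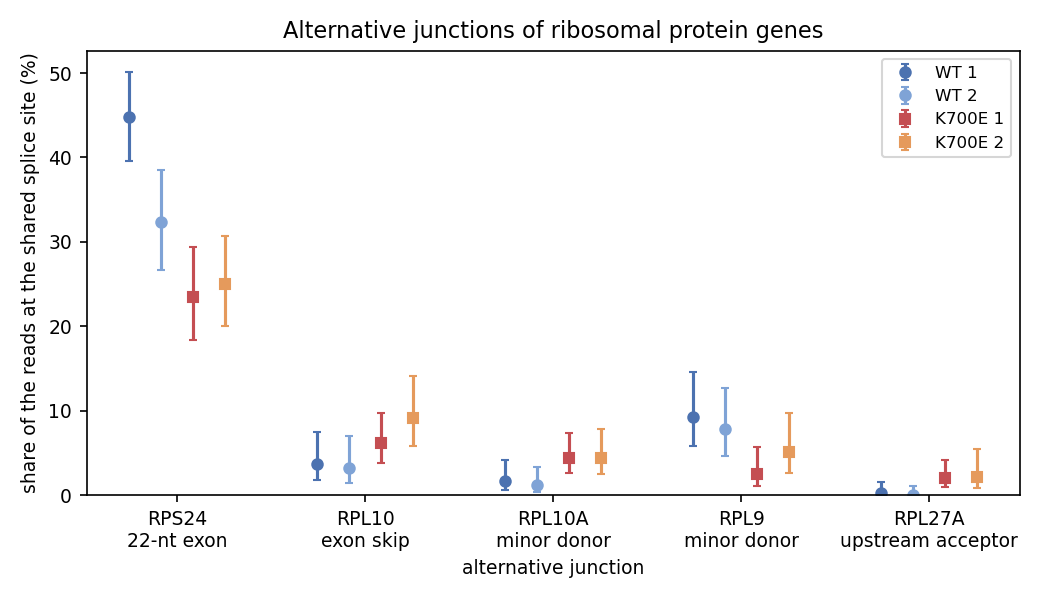
Share of the reads at a shared splice site (y axis, %) taken by 5 alternative junctions (x axis) in each library, with 95% Wilson intervals as bars (circles WT, squares K700E). The RPS24 exon lies at 44.8% and 32.3% in WT and at 23.4% and 25% in K700E, and the RPL27A upstream acceptor at 2.07% and 2.21% in K700E.

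Exon skipping over all ribosomal protein genes took 0.0797% and 0.088% of the reads in WT and 0.108% and 0.136% in SF3B1 K700E. The mutant libraries were higher, by 0.038 percentage points, at the smallest p the design allows (exact permutation p 0.333). The share was not measured in other genes, so the rise cannot be called particular to ribosomal protein genes. The skipping reads fell on 59 junctions in 44 genes, of which 7 junctions had 10 reads or more. The most used were in RPL10, with 46 reads, and RPLP0, with 44 reads. RPLP0 went the other way, with 11 and 17 reads in WT and 11 and 5 in SF3B1 K700E.

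Spliced reads were not even along the representative transcripts of these short genes. The log2 ratio of last-intron to first-intron reads (1 read added to each) had a median over 78 genes of 1.2 and 0.82 in WT and 0.79 and 1.27 in SF3B1 K700E, against 0.00 to 0.26 in 9459 other genes. The genotypes overlap, and the difference was 0.0184 (exact permutation p 1). WT replicate 1 and K700E replicate 2 had the higher values. In some genes the first intron of the representative transcript was little used. That of RPLP0 took 20 of 271 WT reads at its donor. That of RPS14 had 18 reads over the 4 libraries, against 1239 in intron 2. First exons were shorter in ribosomal protein genes, with a median of 110 nt against 226 nt in other tested genes. The parts of exon length and of the transcript chosen in the ratio were not tested.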

How the data were processed

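Chromatin-bound RNA of 4 K562 libraries was read here only through splice junctions. Per the run logs deposited with each library, the authors aligned read pairs with STAR 2.7.10a to GRCh38.p12 in a single pass, with GENCODE releases 27 and 22. The deposited junction files hold counts of uniquely and of multiply mapped reads per junction, with no normalization, per the labels and the fixed STAR columns. The submitters' processing notes name STAR and hg38.

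Annotated introns came from GENCODE release 29. The gene test used those that STAR had also flagged as annotated. In counts of annotated and unannotated junctions, a junction was annotated if STAR flagged it or release 29 held it. Unique reads over introns of 1 gene were summed per gene, and values are CPM after TMM scaling. Genes passing filterByExpr were tested with edgeR 4.0.16 (quasi-likelihood, R 4.3.3), junction shares with its diffSpliceDGE on junctions with at least 10 unique reads, and library shares with an exact 2-sided permutation test over 6 assignments. P-values were adjusted by Benjamini-Hochberg over all features at 0.05. Standard errors of log2 changes were derived from the F statistic of the same test. Alternatives were DESeq2 1.42.0, limma 3.58.1 (voom), other filters, multiply mapped reads, a replicate block and each library left out. The fits were tested on simulated data. Promoter sequences are RefSeq's (GRCh38.p14); acceptor and exon sequences are from GENCODE transcripts. Intervals are 95% Wilson intervals and cover counting error only, since PCR reads are not independent molecules. The limits given for sites without a WT read are not Wilson bounds. They are 3 reads divided by the reads of both WT libraries at the shared splice site.

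The members, gene lists and windows were chosen with earlier results of these data known. Named genes were SF3B1, called members, the 5 largest rises and falls, the 5 highest and lowest levels per intron, members with an unannotated upstream acceptor of at least 10 reads, the Diamond-Blackfan and paralogue lists, members with known alternative splicing, and FAU and RACK1; other names were chosen after their values were seen. Replicate numbers were not used as pairs in the main tests. The labels state no pairing, and the deviations of same-numbered libraries correlated at -0.23, which cannot settle it.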

Additional observations from a re-analysis of the deposited data

How the results depend on the processing

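Leaving out each library gave 0 to 6 ribosomal protein genes called lower, 37 to 79 with a log2 change below 0 and a median log2 change of -0.61 to 0.011. These values rest on K700E replicate 2, without which no gene was called. Leaving out WT replicate 2 gave 2 calls. The difference in the ribosomal protein share of reads ran from -0.756 to 0.0924 percentage points, in the multiply mapped share from -0.225 to 0.145, and in the end ratio from -0.219 to 0.256. DESeq2 called 2 ribosomal protein genes lower (1 in edgeR), and the median over genes gave 0.0968 for the difference in the multiply mapped share. Among single genes, leaving out libraries gave log2 changes of -0.17 to 0.13 for RACK1, -0.14 to 0.39 for RPL4, -0.038 to 0.27 for RPL6, -0.18 to 0.37 for RPL7A, -0.059 to 0.28 for RPL7L1 and -1.19 to 0.011 for RPS27; the cause was not tested. The upstream-acceptor and skipping differences kept their sign under every alternative run, and 0 junctions were called under each.

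With the replicate number as a block, 1 ribosomal protein gene was called lower, RPL37 (log2 change -1.49, edgeR adjusted p 0.0429), and the block changed no other call; a crossed pairing of the replicates, chosen after seeing the data, called 5. Giving introns shared with other genes to the ribosomal protein genes, also chosen after seeing the data, left 1 call. Sites with few reads limit the upstream acceptors, and 2 libraries per group limit every test.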

Other observations

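Some introns of ribosomal protein genes carry snoRNAs. The 58 annotated snoRNAs lay in 56 introns of 27 genes. Relative to the mean intron of its own gene, the median host intron stood at 0.16 on the log2 scale, and the median of the 83 other introns of the same genes stood at -0.01. Over all 304 introns without a snoRNA, in host genes or not, it was -0.04. These are values over the 4 libraries together, with no test.

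Of the introns with reads, 368 had GT/AG ends and 1 had GC/AG ends, and none had AT/AC ends. Junction reads at introns annotated to a second gene as well, such as those of RPL17 and RPS10, whose introns also belong to readthrough transcripts, numbered 19451 in 7 genes and were left out of the gene test.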
